A study of Mus musculus with 10 samples.

Results

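Complement is a cascade of plasma and tissue proteins that tags targets for uptake, and 7 of its genes, chosen by name among the 24453 genes counted, are described here across 10 RNA-seq libraries. These are *C1qa*, *C1qb* and *C1qc*, which encode the chains of the recognition molecule C1q, *C3* and *C4b*, which encode the components deposited on targets, and *C3ar1* and *C5ar1*, which encode the receptors of the released fragments C3a and C5a. The libraries came from intratelencephalic projection neurons (IT-PNs) of layer 5 of the right primary motor cortex of 5 male *Fezf2-Gfp* mice, strain (Zfp312-EGFP)CO61GsatMmnc on a Swiss Webster background, which express GFP under regulatory elements of *Fezf2*. All mice received a retrograde tracer, fluorescent cholera toxin subunit b (CTB647), in the left motor cortex between day 23 and day 25 after birth, and their cells were sorted on day 28 to 32. *Fezf2+ve* IT-PNs were sorted as GFP and CTB positive and *Fezf2−ve* IT-PNs as CTB positive only, with 1 library of each type from each animal. The sort used the reporter, the tracer, light scatter and a viability dye, and no antibody against another cell type is described.

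C1q opens the classical pathway by binding antibody or altered surfaces, after which C4 and C3 are cleaved and C3 fragments mark the target for cells that carry complement receptors. In the brain, C1q is made mainly by microglia, the resident macrophages, and C1q and C3 take part in the removal of synapses during development. C3a and C5a act on G protein-coupled receptors found mainly on myeloid cells.

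Between 89138 and 217738 reads were counted on genes per library. Levels are given as reads and as CPM (reads per 1000000 reads counted on genes), and a floor of 3 reads was 13.8 to 33.7 CPM, varying with library depth. No molecular identifiers were used, so reads are not independent molecules, and floors and intervals cover counting error only. *Fezf2+ve* library 1 stood apart, since 1 gene took 29.8% of its gene reads and 46.7% of its reads on genes and spike-in transcripts together fell on the synthetic ERCC RNAs, against 2.79 to 27.1% in the other libraries. *Fezf2* itself, the gene that separates the types, had 1 read in all libraries, in *Fezf2+ve* library 5, so its counts could not be used to check the sort at this depth. The paper checked the sort by RT-PCR, and reports a *Fezf2* product in the GFP and CTB positive samples and none in those with CTB only. Of the 7 complement genes, 5 had at least 1 read.

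The chains of C1q were found mainly in the *Fezf2−ve* libraries. *C1qa*, which encodes the A chain, had 26, 15, 46, 12 and 4 reads in *Fezf2−ve* libraries 1 to 5 and 0, 1, 0, 0 and 1 reads in *Fezf2+ve* libraries 1 to 5. *C1qb*, which encodes the B chain, had 55, 27, 44, 6 and 13 reads in the *Fezf2−ve* and 0, 1, 1, 0 and 0 reads in the *Fezf2+ve* libraries. For both genes every *Fezf2−ve* library lay above every *Fezf2+ve* library in CPM, and *Fezf2−ve* libraries 4 and 5 were the lowest of their type. *C1qc*, which encodes the C chain, had 65, 83, 274, 16 and 7 reads in the *Fezf2−ve* and 9, 3, 5, 3 and 4 reads in the *Fezf2+ve* libraries. It was the only chain with a read in every *Fezf2+ve* library, and its types overlapped in CPM, because *Fezf2−ve* libraries 4 and 5 were below *Fezf2+ve* library 1. In bulk libraries, fewer cells of a type and less RNA per cell cannot be told apart.

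The 3 genes lie side by side on the minus strand of chromosome 4 (GRCm38, the build the authors call mm10), within 18675 bases at chr4:136880129-136898803 in GENCODE M21. *C1qb* is separated from *C1qc* by 3617 bases and *C1qc* from *C1qa* by 2852 bases, and no other annotated gene overlaps them. The nearest genes outside, *Ephb2* and *Epha8*, encode ephrin receptors and lie 44141 and 30616 bases away. *Ephb2* had 4 reads in the *Fezf2+ve* and 2 in the *Fezf2−ve* libraries, with at most 1 read in any library, and *Epha8* had 0 reads. Both were below the floor of 3 reads in every library, so their levels are not compared with those of the C1q genes.

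Promoters of 250 bases before to 50 bases after the start site were present in the RefSeq table (GRCm38.p6) for 5 of the 7 genes, *C1qb*, *C1qc*, *C3*, *C3ar1* and *C5ar1*. Those of *C1qb* (chr4:136886151-136886450), *C1qc* (chr4:136892865-136893164) and *C5ar1* (chr7:16259289-16259588), all on the minus strand, are shown because *C1qb* and *C1qc* were both lower in *Fezf2+ve* IT-PNs in all animals, whereas *C5ar1*, also a gene of myeloid cells, was not. Each is printed 5′ to 3′ on the strand of its gene. Capitals mark ACTTCCT, the reverse complement of AGGAAGT, a core of the kind bound by ETS-family factors such as PU.1, searched on both strands.
C1qb: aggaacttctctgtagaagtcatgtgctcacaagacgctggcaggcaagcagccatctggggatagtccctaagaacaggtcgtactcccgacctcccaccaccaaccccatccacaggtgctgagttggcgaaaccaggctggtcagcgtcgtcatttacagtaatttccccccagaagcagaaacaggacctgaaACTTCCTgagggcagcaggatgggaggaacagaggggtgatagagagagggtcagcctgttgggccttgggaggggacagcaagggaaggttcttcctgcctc
C1qc: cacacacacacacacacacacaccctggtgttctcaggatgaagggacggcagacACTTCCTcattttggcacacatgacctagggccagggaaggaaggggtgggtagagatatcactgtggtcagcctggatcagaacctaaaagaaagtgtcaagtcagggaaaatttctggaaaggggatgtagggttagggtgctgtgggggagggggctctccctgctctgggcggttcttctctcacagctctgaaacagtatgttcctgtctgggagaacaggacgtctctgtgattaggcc
C5ar1: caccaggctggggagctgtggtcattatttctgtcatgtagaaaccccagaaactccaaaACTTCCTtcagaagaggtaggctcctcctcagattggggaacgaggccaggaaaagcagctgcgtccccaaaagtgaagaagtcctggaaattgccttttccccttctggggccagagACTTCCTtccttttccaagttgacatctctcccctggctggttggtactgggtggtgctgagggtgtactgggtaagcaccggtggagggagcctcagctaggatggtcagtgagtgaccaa
The letters AGGAAGT, on either strand, were present in 9.35% of all 32851 promoters in the table. *C1qb* and *C1qc* had 1 match each and *C5ar1* had 2, and *C3* and *C3ar1* had 0. TATAAA was present in *C3* and *C3ar1* (13.6% of all promoters), and GGGCGG in *C1qc* and *C3ar1* (35.7%), each counted on both strands. A match describes the letters of these windows and is not evidence of binding.

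**Figure D1:**
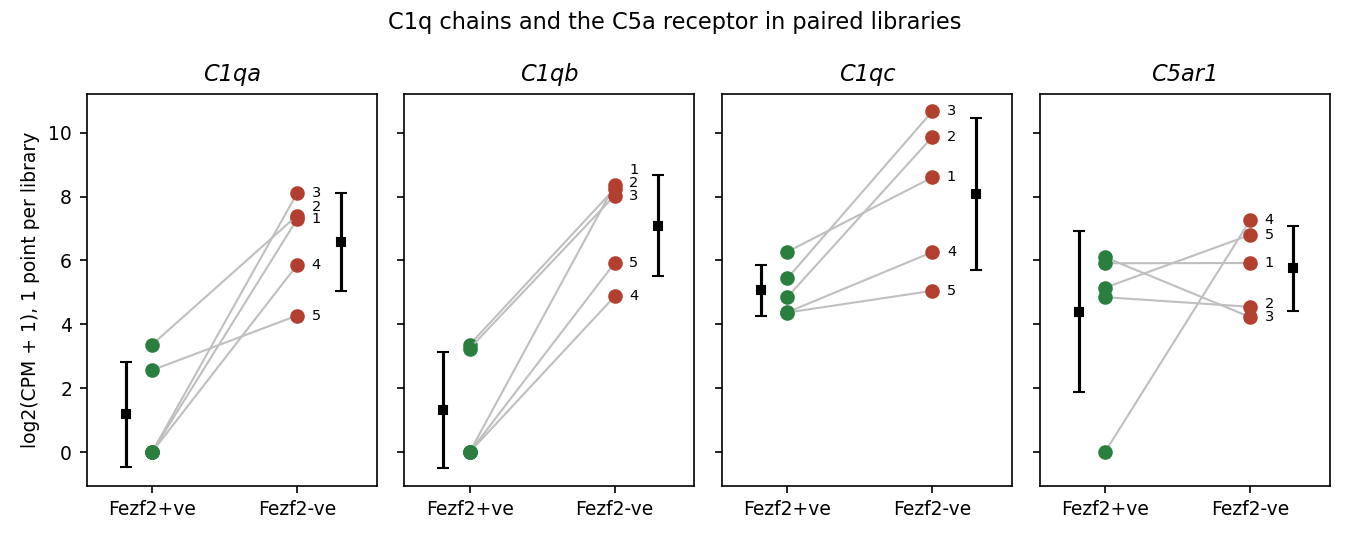
Levels of *C1qa*, *C1qb*, *C1qc* and *C5ar1* as log2(CPM + 1) on the vertical axis, with 1 point per library, lines joining both libraries of an animal, animal numbers beside the *Fezf2−ve* points, and squares with bars for the mean ± SD of each type (n = 5). The lines of the 3 C1q genes run upward in all 5 animals, whereas those of *C5ar1* run in both directions.

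The mean level of *C1qa* was 134 ± 100 CPM (SD, n = 5) in *Fezf2−ve* and 2.84 ± 4.19 CPM in *Fezf2+ve* libraries. That of *C1qb* was 196 ± 141 and 3.55 ± 4.87 CPM, and that of *C1qc* was 610 ± 671 and 37.2 ± 23.7 CPM, in the same order. Over the pooled reads, the level in *Fezf2−ve* over that in *Fezf2+ve* libraries was 42.1 for *C1qa* (103 against 2 reads, 95% counting interval 11.4 to 352), 59.3 for *C1qb* (145 against 2 reads, 16.1 to 494) and 15.2 for *C1qc* (445 against 24 reads, 10.1 to 23.9). *Fezf2−ve* library 3 held 274 of the 445 reads, and without it, in a check added after the data were seen, the ratio for *C1qc* was 7.26 and its *Fezf2−ve* mean 357 CPM. Without *Fezf2+ve* library 2, which leaves 1 read in that type, the ratio was 71.2 for *C1qa* and 100 for *C1qb*, and without *Fezf2+ve* library 3 it was 98.5 for *C1qb*. Non-overlapping CPM with the *Fezf2−ve* libraries higher was found for 2 of the 4 complement genes that were tested, *C1qa* and *C1qb*, and for 0.81% of all tested genes. A lower CPM in the *Fezf2+ve* library of all 5 animals was found for 3 of the 4, the C1q genes, and for 2.6% of all tested genes. Nothing is read from these counts, since *C1qa* and *C1qb* passed the filter on low counts only through their *Fezf2−ve* libraries, which favours genes higher there.

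Levels of the chains are not ranked against each other, because the library method is described as biased to the 3′ end of transcripts, where division by gene length does not hold, and the counting region was not stated. Of all C1q reads in *Fezf2−ve* libraries, 64.2% were on *C1qc* (445 of 693, exact binomial 95% interval 60.5 to 67.8%), and in *Fezf2+ve* libraries 85.7% (24 of 28, 67.3 to 96.0%). The difference between the types was not tested. This share was 44.5, 66.4, 75.3, 47.1 and 29.2% in *Fezf2−ve* libraries 1 to 5, from 24 C1q reads in library 5 to 364 in library 3. Whether the mix of the chains differed between libraries was not tested.

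Summed over the 3 chains, C1q was at 869, 1402, 2158, 161 and 110 CPM in *Fezf2−ve* libraries 1 to 5 and at 76.2, 46.4, 50.8, 19.8 and 24.6 CPM in *Fezf2+ve* libraries 1 to 5. The types did not overlap, but *Fezf2−ve* libraries 4 and 5 lay much closer to the *Fezf2+ve* libraries than the other 3 did. The means were 940 ± 866 and 43.6 ± 22.6 CPM (SD, n = 5), a ratio of 21.6. Within animals the *Fezf2−ve* library was higher by 11.4, 30.2, 42.5, 8.13 and 4.48 times. Without animal 1, whose *Fezf2+ve* library stood apart, the ratio of the means was 27.0.

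Across the whole table, 7409 genes reached 10 CPM in 2 or more libraries and entered edgeR's quasi-likelihood test, blocked by animal, with a call at a Benjamini-Hochberg adjusted p of 0.1 or less. No complement gene passed this test: 0 of the 4 tested, *C1qa*, *C1qb*, *C1qc* and *C5ar1*, were called by edgeR, as were 0% of all tested genes (288 genes had an unadjusted p under 0.05, and DESeq2 called 98). The log2 fold change of *Fezf2+ve* over *Fezf2−ve* was -5.67 (standard error, SE, 1.43) for *C1qb*, -4.88 (1.55) for *C1qa* and -2.97 (1.25) for *C1qc*, each with an adjusted p of 0.998 from edgeR. The fitted values of *C1qa* and *C1qb* depend on the prior count, because 2 reads remained in 1 type. By unadjusted p, *C1qb*, *C1qa* and *C1qc* were numbers 7, 23 and 169 of the 7409 genes. An unadjusted p under 0.05 was found for 3 of the 4 complement genes, all lower in *Fezf2+ve*, and in that direction for 2.27% of all tested genes. As the filter favoured this direction for *C1qa* and *C1qb*, nothing is read from this count. That of *C1qc* was above 0.05 without animal 2 or without animal 3, where its log2 fold change was -2.41 and -2.39. An exact permutation test of the 5 paired differences in log2(TMM-scaled CPM + 1), two-sided, gave p = 0.0625 for each C1q gene, the smallest value that 5 animals allow. The mean paired difference was -5.45 ± 2.51 for *C1qa*, -5.92 ± 1.36 for *C1qb* and -2.98 ± 2.07 for *C1qc* (SD, n = 5), lower in *Fezf2+ve* in 5 of 5 animals.

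Other fits of the same counts called the C1q genes or not depending on the method. DESeq2 with the animal block called *C1qa* (log2 fold change -5.21, adjusted p = 0.0351), *C1qb* (-5.67, adjusted p = 0.00878) and *C1qc* (-3.05, adjusted p = 0.0935), against 3.31% of the 1664 genes for which it gave an adjusted p that were called lower in *Fezf2+ve*. It gave no adjusted p for the other 5745 tested genes. In counts simulated at the common dispersion of these data (1.41), where 200 genes were made to differ by log2 3 between the types, DESeq2 called 110 changed and 72 unchanged genes, and edgeR called 0 of either, with the block or without it. In this simulated setting DESeq2 calls were prone to error, and edgeR missed changes of this size. The setting differs from the data, since all genes had the same dispersion and no difference between animals was added. In the data, edgeR without the block called 279 genes. The error rate of the calls in the data was not tested. The shares here and below give the scale of the calls and no support from their number, since *C1qa* and *C1qb* passed the filter through *Fezf2−ve* libraries alone. With DESeq2's prior on the fold change the same 3 genes were called, against 3.22% of genes. edgeR without the animal block also called the 3 genes, at adjusted p-values of 0.0931, 0.0931 and 0.0934, against 2.15% of genes lower in *Fezf2+ve*. These calls lay close to the threshold of 0.1 and were shared only in part by variants of edgeR without the block that were added after the data were seen. The legacy quasi-likelihood method called *C1qa* and *C1qb* (adjusted p = 0.0784 and 0.0766) but not *C1qc* (adjusted p = 0.204), against 4.68% of genes. A robust fit called 0 complement genes, with edgeR adjusted p-values of 0.105, 0.105 and 0.115, and 0% of all genes, although 1339 genes had an unadjusted p under 0.05. The legacy method with a robust fit also called 0 complement genes in edgeR, against 0.378% of genes, where 1569 genes had an unadjusted p under 0.05 and the adjusted p was 0.103 for *C1qa* and for *C1qb* and 0.241 for *C1qc*.

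**Figure D2:**
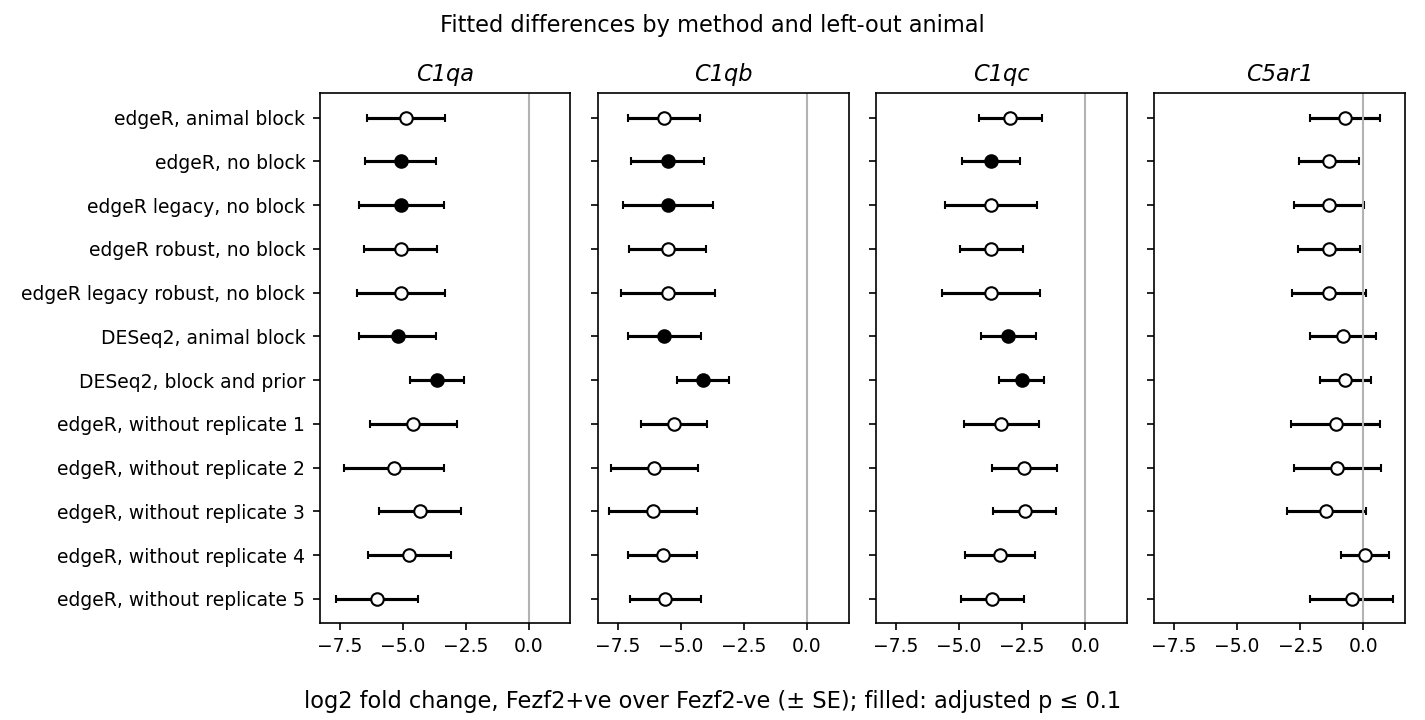
Log2 fold change, *Fezf2+ve* over *Fezf2−ve* (horizontal axis, ± standard error) of 4 complement genes for each method and each left-out animal, with filled points for an adjusted p of 0.1 or less. The C1q genes are negative throughout, from -6.11 to -2.39, and filled in some methods only, and *C5ar1* reaches 0.079 without animal 4.

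Markers of microglia, summed, were also higher in the *Fezf2−ve* libraries, though among these libraries their levels did not follow those of C1q. All 20 listed markers had a read, and the summed level was 6593, 4443, 6520, 8473 and 4152 CPM in *Fezf2−ve* libraries 1 to 5 and 254, 186, 59.3, 66.0 and 138 CPM in *Fezf2+ve* libraries 1 to 5. The types did not overlap. All 18 tested markers had a negative log2 fold change, with a median of -3.99, against -0.16 for all 7409 tested genes. As 13 of the 18 passed the filter through *Fezf2−ve* libraries alone, nothing is read from the signs or the median. edgeR with the block called 0 of them (12 had an unadjusted p under 0.05, against 3.89% of all tested genes). Without the block edgeR called 10, against 3.77%, and DESeq2 called 9 of the 12 to which it gave an adjusted p, against 5.89%. These counts share the limit set by the filter. The marker with the most reads was *Ptprc*, which encodes the leukocyte phosphatase CD45, with 1422 reads of which 1390 were in *Fezf2−ve* library 4. Without *Ptprc* the summed level in that library was 1897 CPM. The part of microglial RNA in the difference in C1q was not tested.

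C1q was also set against the microglial markers. For each 100 reads on the markers, *Fezf2−ve* libraries 1 to 5 had 13.2, 31.6, 33.1, 1.90 and 2.65 reads on the C1q genes. *Fezf2+ve* libraries 1 to 5 had 30, 25, 85.7, 30 and 17.9, from 3 to 9 C1q reads and 7 to 30 marker reads each. Without *Ptprc* the *Fezf2−ve* values were 13.4, 31.9, 33.3, 8.48 and 2.66. In *Fezf2−ve* library 5, *Csf1r*, which encodes the receptor for colony stimulating factor 1, held 534 of the 904 marker reads. Without *Csf1r*, an alternative added after the data were seen, the summed markers were at 1699 CPM in library 5 and 3938 CPM in library 2, with 6.49 and 35.6 C1q reads for each 100 marker reads. The likeness of these 2 libraries in summed markers thus rests on *Csf1r*. With both *Ptprc* and *Csf1r* left out, also added after the data were seen, the summed markers were at 6200, 3893, 5779, 1765 and 1695 CPM in *Fezf2−ve* libraries 1 to 5. The C1q reads for each 100 marker reads were then 14.0, 36.0, 37.3, 9.12 and 6.50. Nothing is read from the order of these libraries. *Ptprc* held most marker reads of library 4 and *Csf1r* most of library 5, so leaving both out had to lower these libraries. Abundant markers of other libraries were kept, such as *P2ry12* and *Ctss*, with 388 and 372 of the 1107 marker reads in library 1.

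**Figure D3:**
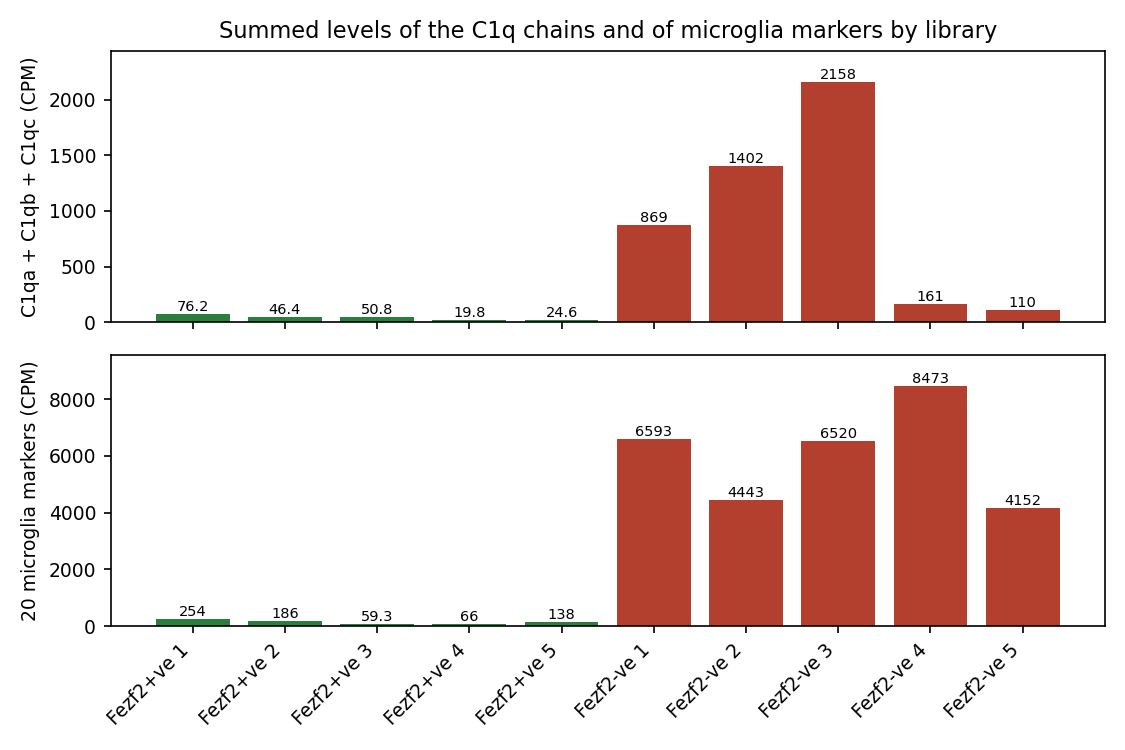
Summed CPM of *C1qa*, *C1qb* and *C1qc* (upper panel) and of 20 microglia markers (lower panel), with 1 bar per library, *Fezf2+ve* in green and *Fezf2−ve* in red. C1q ranges from 110 to 2158 CPM among *Fezf2−ve* libraries, and the markers range from 4152 to 8473 CPM, or from 1695 to 6200 CPM without *Ptprc* and *Csf1r*.

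Markers of other cells were examined in the same libraries. Perivascular macrophage markers had 165 reads in the *Fezf2−ve* and 15 in the *Fezf2+ve* libraries, with summed levels of 35.7, 101, 842, 33.1 and 4.59 CPM in *Fezf2−ve* and 8.46, 46.4, 8.47, 26.4 and 19.7 CPM in *Fezf2+ve* libraries 1 to 5. *Fezf2−ve* library 3, the library with the most C1q, was the high one, through 137 reads on *Stab1*, a scavenger receptor gene that held 152 of all reads on this list. Without that library the *Fezf2−ve* mean fell from 203 to 43.6 CPM, against 21.9 CPM in *Fezf2+ve*. *Cd163*, *Lyve1*, *Cbr2* and *Cd209f* had no read, and 6 of the 10 markers had one. Haemoglobin and other red cell genes had 4520, 3298, 273, 289 and 9.19 CPM in *Fezf2−ve* and 872, 102, 16.9, 0 and 0 CPM in *Fezf2+ve* libraries 1 to 5, lower in *Fezf2+ve* in 5 of 5 animals, with *Hbb-bs* the most abundant (410 reads). All 5 red cell genes had a read, and of 4 tested edgeR with the block called 0 (4 had an unadjusted p under 0.05, against 3.89% of all tested genes) and DESeq2 called 2 of 4, against 5.89%. The 2 called, *Hba-a1* and *Hba-a2*, had equal reads in all 10 libraries (249 each), so they were 1 set of reads counted for both genes, also in the summed level, and both passed the filter through *Fezf2−ve* libraries alone. Blood leukocyte markers had 1 read in all, on *Plac8*, and 7 of 8, among them *S100a8*, *S100a9*, *Ly6c2*, *Ccr2*, *Cd3e* and *Nkg7*, had none. The part of perivascular macrophages and blood in the difference in C1q was not tested.

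Markers of glia other than microglia, of vessels and of neurons overlapped in level between the types. Astrocyte markers had a mean of 2266 ± 3062 CPM in *Fezf2+ve* and 996 ± 1598 CPM in *Fezf2−ve* libraries (SD, n = 5), with *Slc1a2* the most abundant (1817 reads) and no read on *Gfap*. Oligodendrocyte markers were at 2525 ± 4583 and 702 ± 779 CPM, and oligodendrocyte precursor markers at 1113 ± 1062 and 662 ± 427 CPM (*Pdgfra*, 740 reads). Endothelial markers were at 41.1 ± 22.2 and 22.9 ± 14.6 CPM (*Flt1*, 26 reads). Markers of excitatory neurons, the class that was sorted, were at 280 ± 240 and 726 ± 1453 CPM, with no read on *Tbr1* and 529 of the 588 reads on *Camk2a* in *Fezf2−ve* library 3. Inhibitory neuron markers were at 101 ± 167 and 34.6 ± 22.4 CPM, with no read on *Pvalb*, *Vip* or *Slc32a1*. Single libraries set several of these means, as seen when each was left out in turn, a check added after the data were seen. Without library 2 the *Fezf2+ve* means were 912 CPM for astrocytes, 479 CPM for oligodendrocytes and 735 CPM for their precursors, so the first 2 changed direction. Without library 1 the *Fezf2+ve* mean of inhibitory neurons was 26.4 CPM, and without library 3 the *Fezf2−ve* mean of excitatory neurons was 76.7 CPM, both a change of direction. *Fezf2−ve* means of 294 CPM for astrocytes without library 4 and of 365 CPM for oligodendrocytes without library 1 kept the direction. In each of these lists the libraries of both types overlapped. edgeR called 0 of their genes with the block, as for all tested genes, and 0 without it, against 3.77% of all tested genes. With the block, 0 had an unadjusted p under 0.05 in edgeR, against 3.89%. DESeq2 also called 0, but it gave an adjusted p to few of these genes. These were 3 of 6 astrocyte, 3 of 7 oligodendrocyte, 3 of 4 precursor, 1 of 6 excitatory and 1 of 1 inhibitory genes. Of the 3 endothelial genes, 0 were given one, so none could be called.

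*C5ar1*, which encodes the main receptor of C5a, had 10, 2, 3, 32 and 24 reads in *Fezf2−ve* and 7, 3, 8, 0 and 7 reads in *Fezf2+ve* libraries 1 to 5. *Fezf2−ve* libraries 4 and 5, which had the least C1q, had the most *C5ar1*, and the types overlapped. The mean was 72.3 ± 57.7 CPM in *Fezf2−ve* and 37.9 ± 26.9 CPM in *Fezf2+ve* libraries (SD, n = 5), and the ratio of the pooled levels was 2.32 (71 against 25 reads, 95% counting interval 1.45 to 3.82). The *Fezf2+ve* library was lower in 3 of 5 animals by CPM and in 2 of 5 by TMM-scaled CPM. With the block, edgeR gave a log2 fold change of -0.72 (SE 1.38, Benjamini-Hochberg adjusted p = 0.998), one of 0.079 without animal 4 and one of -1.37 without the block. A two-sided exact permutation of the paired differences gave p = 0.75. *C5ar1* at chr7:16246743-16259540 lies next to *C5ar2*, which encodes the other C5a receptor and had 0 reads, and to *Inafm1*, which had 3 reads, all in *Fezf2−ve* library 3.

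*C3ar1*, which encodes the C3a receptor and lies at chr6:122847138-122856161 between *Foxj2* (0 reads) and *Necap1* (92 reads in *Fezf2+ve* and 85 in *Fezf2−ve* libraries), had 2 reads, both in *Fezf2−ve* library 3. Both types were below the floor of 3 reads, so no fold is given. For *Necap1*, 89 of the 92 reads were in *Fezf2+ve* library 1 and 55 of the 85 in *Fezf2−ve* library 5. *C3*, the central component of the cascade at chr17:57203970-57228136, had 0 reads in the 10 libraries. *C4b*, the classical pathway component at chr17:34728380-34743882, and its near-identical copy *C4a* also had 0 reads. *C3* and *C4b* were thus not detectable at this depth, where 3 reads correspond to 3.51 CPM over all *Fezf2−ve* and 4.29 CPM over all *Fezf2+ve* libraries. The genes beside *C3*, *Tnfsf14* and *Gpr108*, had 0 reads and 23 reads, and the next protein-coding genes on either side of *C4b*, *Tnxb* and *Cyp21a1*, had 1 read and 0 reads. The pseudogenes *Stk19-ps1* and *Cyp21a2-ps* lie nearer to *C4b* and were not in the count table.

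The rest of the complement system was followed in 59 further genes, of which 37 had a read, 22 had none and 21 were tested. Of these 21, 11 had a negative and 10 a positive log2 fold change, with a median of -0.09 against -0.16 for all tested genes. Nothing is read from the signs or the median. The filter was passed through *Fezf2−ve* libraries alone by 9 of the 21 and through *Fezf2+ve* libraries alone by 3. edgeR called 0 of them with the block and 0 without it (3.77% of all tested genes were called without it in either direction), and with the block the unadjusted p was under 0.05 for 3, against 3.89% of all tested genes. DESeq2 called 2 of the 5 to which it gave an adjusted p, against 5.89% of all genes given one. These were *Itgam*, lower in *Fezf2+ve* (adjusted p = 0.0419), and *Csmd1*, higher (adjusted p = 0.0887).

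Among the other receptors, 6 of 8 genes had a read, and the 5 tested had a negative log2 fold change with a median of -2.19. Of these 5, 4 (*Itgam*, *Itgb2*, *Vsig4* and *Lrp1*) passed the filter through *Fezf2−ve* libraries alone, so nothing is read from the signs or the median. *Itgam*, which encodes the alpha chain of complement receptor 3, had 78, 5, 30, 54 and 1 reads in *Fezf2−ve* and 1, 0, 0, 0 and 3 reads in *Fezf2+ve* libraries 1 to 5, and a log2 fold change of -4.87 (SE 1.83). *Itgb2*, its beta chain, had 24 reads in *Fezf2−ve*, 20 of them in library 1, and 1 in *Fezf2+ve*. *Vsig4*, a receptor for C3 fragments on tissue macrophages, had 54 reads in *Fezf2−ve*, 51 of them in library 3, and 2 in *Fezf2+ve*. *Calr*, which encodes the C1q-binding chaperone calreticulin, had 33 and 10 reads. No read fell on *C5ar2* or *Cd93*.

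Regulators of complement had the most reads of the other lists, with reads on 19 of 25 genes, 12 of them tested, 9 positive and 3 negative, and a median log2 fold change of 0.45. Nothing is read from these signs or this median, as 2 of the 12 passed the filter through *Fezf2−ve* and 2 through *Fezf2+ve* libraries alone. *Csmd1*, a large membrane gene with complement-control domains that is expressed in neurons, had 1315, 51, 625, 96 and 610 reads in *Fezf2+ve* and 65, 17, 63, 46 and 103 reads in *Fezf2−ve* libraries 1 to 5. It was higher in *Fezf2+ve* in all 5 animals, and in CPM every *Fezf2+ve* library lay above every *Fezf2−ve* library, which held for 0.229% of all tested genes. The nearest libraries were at 474 and 473 CPM, and in TMM-scaled CPM the types overlapped. Its log2 fold change was 2.86 (SE 1.25, Benjamini-Hochberg adjusted p = 0.998 in edgeR). Its relative *Csmd3* had 881 reads in *Fezf2+ve*, 767 of them in library 4, and 225 in *Fezf2−ve*, with a log2 fold change of 0.46 with the block and 2.85 without it. *Csmd2* had 191 and 303 reads in the same order, and its log2 fold change was positive with the block and -0.20 without it. *Clu*, or clusterin, had 63 and 32 reads in *Fezf2−ve* and *Fezf2+ve*, with a log2 fold change of 0.05 with the block and -0.60 without it. *Cd55*, or decay-accelerating factor, had 36 reads in *Fezf2−ve*, 35 of them in library 4, and 8 in *Fezf2+ve*. *Serping1*, *Cr2*, *Vtn*, *Srpx2*, *Nptx1* and *Nptx2* had no read.

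The proteases and later components were scarce. In the classical and lectin pathways 6 of 16 genes had a read, in all 20 reads in *Fezf2−ve* and 4 in *Fezf2+ve*, and the 2 tested had a median log2 fold change of -2.33, from which nothing is read because both passed the filter through *Fezf2−ve* libraries alone. *C1ra*, *C1rb*, *C1s1* and *C1s2*, which encode the proteases that act with C1q, had no read, nor did *C4a*, *Masp2*, *Mbl1*, *Mbl2*, *Fcna* or *Fcnb*. In the alternative and terminal pathways 6 of 10 genes had a read, 18 reads in *Fezf2−ve* and 10 in *Fezf2+ve*, with a median of 0.06 over the 2 tested and no read on *Cfb*, *Cfd*, *Cfp* or *C8g*. Nothing is read from this median either, as 1 of the 2 passed the filter through *Fezf2−ve* and 1 through *Fezf2+ve* libraries alone. Other genes with a C1q domain, 25 of which were in the table, had 57 reads in *Fezf2−ve* and 30 in *Fezf2+ve*, and the gene with the most was the collagen gene *Col8a1* (16 reads). Of these, 16 had a read, and the 5 tested had a median log2 fold change of -0.49. Nothing is read from this median, as 2 of the 5 passed the filter through *Fezf2−ve* libraries alone. edgeR called 0 with the block, as for all tested genes, and 0 without it, against 3.77% of all tested genes. With the block, 0 had an unadjusted p under 0.05, against 3.89%. DESeq2 gave an adjusted p to 0 of the 5, so it could call none.

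**Figure D4:**
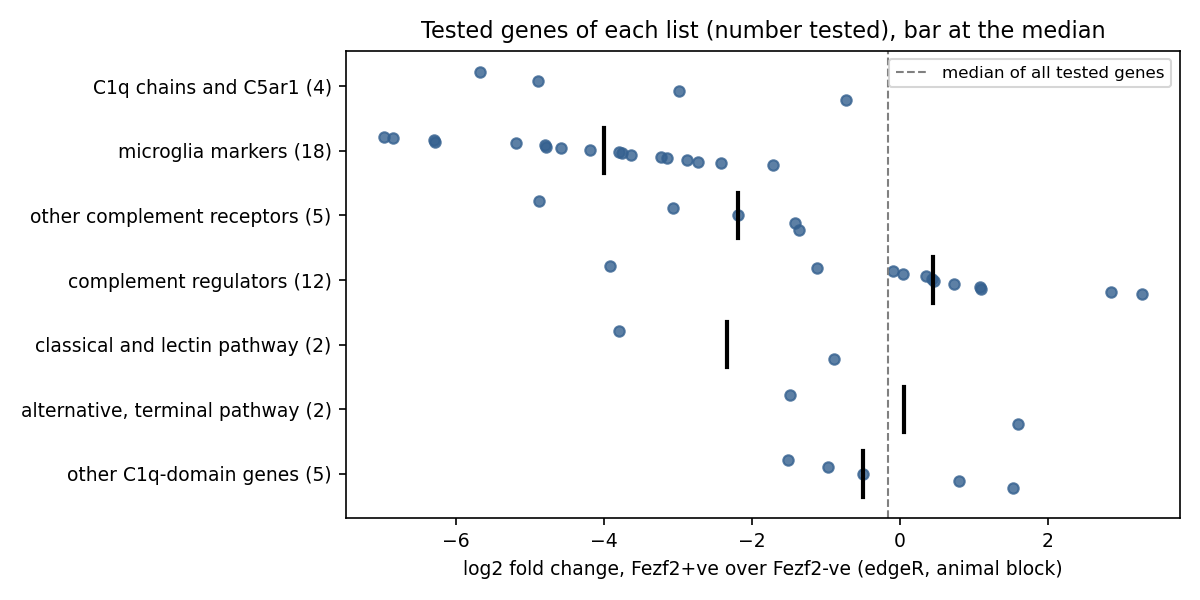
Log2 fold change, *Fezf2+ve* over *Fezf2−ve* (horizontal axis, edgeR with the animal block) for each tested gene of 7 groups, with the number tested in parentheses, a bar at the median of every group but the first, and a dashed line at the median of all tested genes (-0.16). Of the microglia markers (median -3.99) 13 of 18, and of the other receptors (median -2.19) 4 of 5, passed the filter through *Fezf2−ve* libraries alone, so their medians are not compared with that of the regulators (0.45).

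The genes most like C1q were found by the root mean square difference, over the 10 libraries, between their centred log2(TMM-scaled CPM + 1) and the centred mean of the 3 chains. The 8 tested genes with the smallest differences were *Bmp2k* (0.71), *E230029C05Rik* (0.72), *Atad2* (0.91), *Slco2b1* (0.99), *Vsir* (1.00), *Clic1* (1.04), *March4* (1.05) and *Siglech* (1.06). The chains themselves were at 0.90 (*C1qa*), 1.04 (*C1qb*) and 1.27 (*C1qc*), *C5ar1* was at 2.90 and the median of all tested genes was 3.13. These 8 genes had between 10 and 65 reads over the 10 libraries, and none had more than 1 read in a *Fezf2+ve* library. *Siglech*, which encodes a lectin of microglia, is the 1 gene among them that belongs to a marker list used here. All 8 passed the filter on low counts through *Fezf2−ve* libraries alone, as did *C1qa* and *C1qb*. Nothing is read from their likeness to C1q or from the presence of *Siglech*.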

How the data were processed

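The authors mapped trimmed reads to mm10 with TopHat2 2.1.1, counted them on RefFlat genes with multiCov of bedtools 2.26.0, which counts a read on each gene it overlaps, and deposited these counts without normalization. Strand use is not stated. The deposited comparison table (mean of scaled counts, log2 fold change with its error, statistic, p and adjusted p) was not used. Counts were scaled by TMM and fitted with edgeR 4.0.16 in R 4.3.3 and, as an alternative, DESeq2 1.42.0. In counts simulated with 200 changed genes, edgeR with the block called 200 changed and 6 unchanged genes at a dispersion of 0.1 and 135 and 0 at 0.5, edgeR without the block 200 and 23, then 179 and 25, and DESeq2 200 and 4, then 187 and 41. A simulation at the dispersion of these data (1.41) was added after the results were seen. edgeR's current quasi-likelihood method was chosen over the legacy one after results of both had been seen. The 1664 genes given an adjusted p were taken as the base of DESeq2's percentage after a percentage of all 7409 genes had been seen. Levels, exact tests and figures used Python 3.11.15 with numpy 2.4.6, pandas 2.3.3, scipy 1.17.1 and matplotlib 3.10.9. Libraries were paired because the sample records state that the cells of each animal were split into both types, and the methods number the animals. Deviations of same-animal libraries correlated at -0.03 to 0.10. The genes named are the 7 complement genes, the 10 other complement genes with the most reads and any called, the 8 genes most like C1q, the most abundant and the undetected genes of each marker list, and neighbours in the annotation. Results of some of these are not reported here. *Csf1r* was named after its values were seen. Members and lists were chosen with earlier results of these data known. Floors of 3 reads and 95% intervals cover counting error only.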

Additional observations from a re-analysis of the deposited data

Results flagged for a closer look

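In 53 groups of 5 libraries, the gap between the most distant library and its nearest neighbour was divided by the range of the group, and 20 groups passed the critical value of 0.710. Groups with no library above 3 reads were left out after a first screen that held them had been seen. The critical value gives about 1 in 20 by chance for independent, normally distributed values. Most groups here were CPM of few and uneven reads, and the groups share libraries. The number that passed is thus not set against that rate. None of the groups that passed belonged to the 7 complement genes.

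Among *Fezf2−ve* libraries, library 1 was the distant one for *Csmd2* (0.943), *Clu* (0.737), *Calr* (0.754), *Itgb2* (0.881), the summed complement regulators (0.829) and the oligodendrocyte markers (0.717). Library 2 was distant for the other genes with a C1q domain (0.843). Library 3, which had the most C1q, was distant for *Vsig4* (0.889), perivascular macrophage markers (0.885) and excitatory neuron markers (0.978). Library 4 was distant for *Cd55* (0.964) and astrocyte markers (0.800).

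Among *Fezf2+ve* libraries, library 1 was distant for red cell genes (0.883), inhibitory neuron markers (0.909) and the share of reads on ERCC transcripts (0.846). Library 2 was distant for astrocyte (0.833) and oligodendrocyte (0.937) markers, library 3 for *Csmd2* (0.956), library 4 for *Csmd3* (0.952) and library 5 for *Cd55* (1).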

How the results depend on the processing

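With the animal block, edgeR called 0 genes with other size factors, without the filter on low counts, with a stricter filter, in thinned counts, at an adjusted p of 0.05, with the legacy method, with a robust fit and without any 1 animal (lowest and highest 0 and 0), against 288 at an unadjusted p under 0.05 with all animals. Without the replicate block it called 279 genes, 3 of them C1q genes and 0 of the other complement genes. Added after the data were seen, the legacy method without the block called 638 genes, with 2 C1q genes and 2 other complement genes (*Itgam* and *Vsig4*), the legacy robust fit without the block called 40 genes and no complement gene, and the robust fit without the block called 0 genes, with 1339 at an unadjusted p under 0.05 in edgeR and 98 called by DESeq2. DESeq2 called 98 genes, and 88 with its prior, with 3 C1q genes and 2 other complement genes (*Itgam* and *Csmd1*) each time. The cause of these differences was not tested. The sign of the C1q fold changes was kept in every alternative. Without 1 animal the log2 fold change ranged from -6.01 to -4.33 for *C1qa*, -6.11 to -5.27 for *C1qb* and -3.68 to -2.39 for *C1qc*. That of *C5ar1* ranged from -1.47 to 0.079, the latter reversed and without animal 4, where the reads of *C5ar1* were 0 and 32. The unadjusted p of *C1qc* was 0.0792 with the legacy method, 0.0688 in thinned counts, 0.0877 without animal 2 and 0.0793 without animal 3 (edgeR). The mean C1q level without 1 animal ranged from 636 to 1148 CPM in *Fezf2−ve* and from 35.4 to 49.5 CPM in *Fezf2+ve*, with a ratio of 15.2 to 27.0, and the ratio was 18.6 by TMM-scaled CPM and 25.2 per read on ERCC transcripts. Much of the 25.2 came from *Fezf2−ve* library 3, with 30.9 C1q reads per 1000 ERCC reads. The other *Fezf2−ve* libraries had 1.48 to 3.84, and this ratio was not computed without library 3. Depth limits what can be said of genes with few reads.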
